A study of Rattus norvegicus with 8 samples.

Results

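The genes described here are 5 members or partners of the BMP and TGF-beta signalling system in rat nucleus pulposus cells: the growth factor genes Bmp2 and Tgfb1, Lrrc32, whose product docks latent TGF-beta on the cell surface, Tgfbi, a matrix protein named for its induction by TGF-beta, and Ism1, which encodes the secreted protein isthmin 1. They were taken by symbol from a deposited table of 4226 genes, and each symbol matched 1 row. The choice was made with their difference between the groups already known, so that difference is given as a description and was not tested. Nucleus pulposus cells populate the gelatinous centre of the intervertebral disc. In all libraries the cells had undergone knockdown of SOD1, a cytosolic enzyme that removes superoxide, followed by transfection of SOD1 in the wild-type form (SOD1-WT, 4 libraries) or in the K123R form, which carries arginine in place of a lysine (SOD1-K123R, 4 libraries). Per the design text, both groups received lactate at 10 mM over 7 days. The sources used here give neither strain, age, sex nor passage of the cells, and do not state whether the 4 libraries of a group came from separate cultures, so errors measure the spread between libraries, which may be technical.

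In the table, columns of SOD1-WT libraries carry the name Ctrl and columns of SOD1-K123R libraries the letter L. What L stands for is not explained, and whether it marks lactate cannot be settled here. Also, the library identifiers of each group form 1 unbroken run. Handling in those runs and the SOD1 form cannot be told apart. Sod1 itself was not analysed here, so neither its knockdown nor equal re-expression of both forms was checked. Values are TPM, a unit of transcript abundance scaled for transcript length, so that levels can be compared between genes. The rows summed to between 187515 and 198656 TPM in SOD1-WT libraries and between 235371 and 243393 TPM in SOD1-K123R libraries, less than a full library's total, so other genes were outside the table, and the depth behind the values is unknown. Of 18 listed markers of nucleus pulposus cells 9 were in the table. Among them the cartilage collagen gene Col2a1 was listed at 0 in all SOD1-WT libraries and reached at most 0.08 TPM in SOD1-K123R, and the proteoglycan gene Acan stood at 1.55 ± 0.419 and 0.645 ± 0.0998 TPM (mean ± SD, n = 4 in each group here and below). The chondrogenic factor gene Sox9 stood at 0.400 ± 0.101 and 3.19 ± 0.5002 TPM, Car12 at 0.778 ± 0.226 and 3.27 ± 0.707, and Cd24 at 10.1 ± 1.43 and 31.2 ± 6.44. Lower in SOD1-K123R were Ncam1 at 35.2 ± 4.63 and 17.3 ± 2.53, Cdh2 at 9.43 ± 0.432 and 2.96 ± 0.451, and Car3 at 5.275 ± 1.48 and 0.89 ± 0.297. The 9 markers summed to 281 to 301 TPM in SOD1-WT libraries and 1113 to 1203 TPM in SOD1-K123R libraries, most of it the glucose transporter gene Slc2a1 (225 ± 6.37 and 1096 ± 52.1 TPM). Thus Col2a1 was absent or nearly so and Acan low in both groups, while other markers were present, some higher and some lower in SOD1-K123R.

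Ligands of the TGF-beta family bind paired serine/threonine kinase receptors, which phosphorylate SMAD transcription factors. BMP ligands act mainly through one set of SMADs and TGF-beta ligands through another, and secreted antagonists such as noggin and gremlin hold BMPs away from their receptors. TGF-beta is made with a propeptide that keeps it latent, and the complex is held either in the matrix, by latent TGF-beta binding proteins, or on the cell surface, by GARP, the product of Lrrc32, until integrins or proteases free it. In the disc and in cartilage both branches are known for their part in matrix synthesis, fibrosis and ossification.

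In SOD1-WT cells Tgfbi and Tgfb1 were the most abundant of the 5 transcripts, Bmp2 followed, and Ism1 and Lrrc32 were low. In SOD1-K123R cells Tgfb1 was higher, Lrrc32 was 19.0 times higher, Bmp2 was 12.6 times lower and Ism1 was 47.7 times lower, as ratios of mean TPM, while Tgfbi overlapped between the groups. For 4 of the 5 genes the highest library of one group lay below the lowest of the other, and the same held for 91.4% of the 2890 genes whose mean reached 1 TPM. Since these genes were picked on this contrast, nothing is read from that count.

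**Figure D1:**
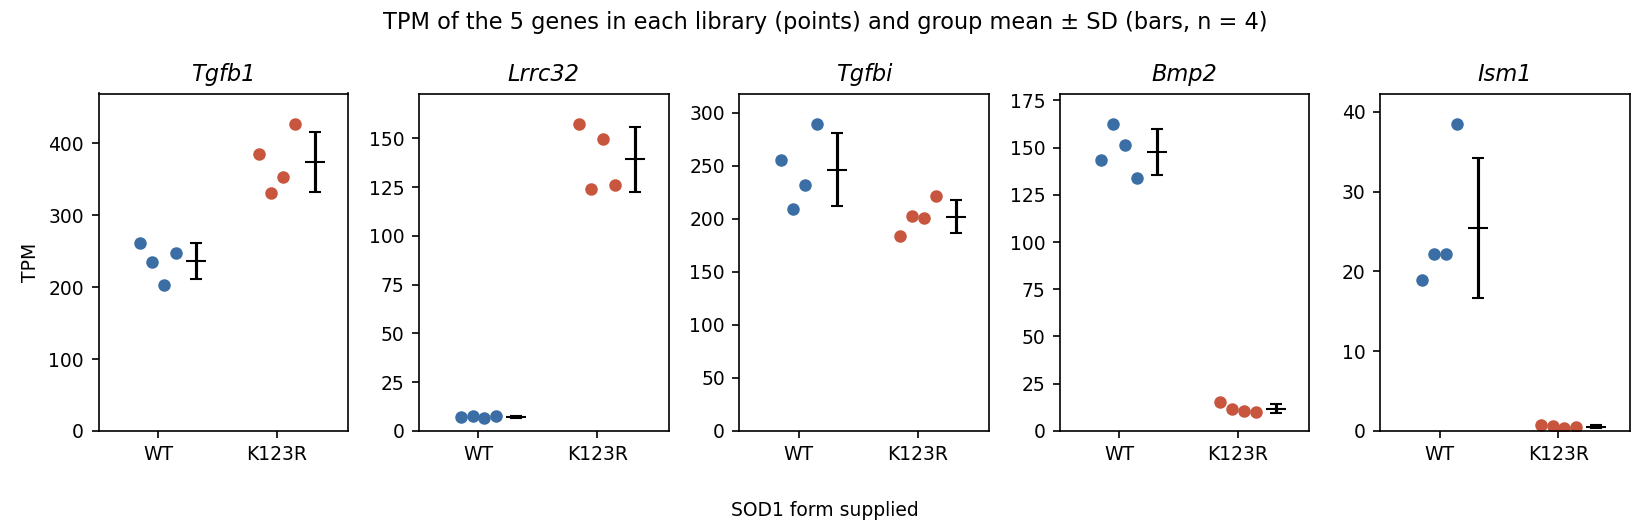
TPM of each gene (vertical axes, linear, each from 0) in the SOD1-WT and SOD1-K123R libraries, with 1 point per library and bars for the group mean ± SD (n = 4). Lrrc32 lies between 6.66 and 7.90 TPM in SOD1-WT and between 124 and 157 TPM in SOD1-K123R, Bmp2 and Ism1 lie lower in SOD1-K123R, and Tgfbi overlaps between the groups.

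Tgfb1 encodes TGF-beta 1, a regulator of matrix production and of cell growth. It read 261, 235, 202 and 248 TPM in SOD1-WT replicates 1 to 4 and 385, 331, 353 and 427 TPM in SOD1-K123R replicates 1 to 4. Every SOD1-K123R library lay above every SOD1-WT library. The means were 237 ± 25.2 and 374 ± 41.4 TPM, a log2 fold change of 0.66 (SE 0.10). Fold changes are SOD1-K123R minus SOD1-WT on the log2(TPM + 1) scale, which understates the change of low genes, and SE is limma's moderated standard error. The size depended on the scaling: the log2 fold change was 1.14 after median-of-ratios scaling and 0.35 after quantile normalization.

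Lrrc32 encodes GARP, a transmembrane protein best known from regulatory T cells and platelets, where it presents latent TGF-beta. Its TPM were 7.31, 7.45, 6.66 and 7.90 in SOD1-WT and 157, 124, 149.6 and 126 in SOD1-K123R. The groups were far apart, and within SOD1-K123R replicates 1 and 3 lay above replicates 2 and 4. The mean went from 7.33 ± 0.513 to 139 ± 16.7 TPM (log2 fold change 4.07, SE 0.10). By level Lrrc32 stood between rank 1520 and rank 1699 of the 4226 rows in SOD1-WT libraries and between rank 161 and rank 200 in SOD1-K123R libraries.

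Markers of blood and endothelial cells, some of which carry GARP, were at low levels, and listed markers outside the table were not analysed here. Of 9 listed markers of T cells only Il2ra was in the table, at no more than 0.23 TPM in any library. Of 6 platelet and megakaryocyte markers Itga2b and Gp1ba were in the table, and their summed level was 0.36 to 0.45 TPM in SOD1-WT and 1.38 to 2.46 TPM in SOD1-K123R. The endothelial marker Pecam1, the only one of 8 in the table, read 0.06 to 0.31 and 0.32 to 0.46 TPM. Macrophage markers (2 of 9 in the table) summed to 5.44 to 8.04 TPM and 23.4 to 30.9 TPM, of which nearly all was Cd68, and the part of these cell types in the difference of Lrrc32 was not tested. In bulk RNA fewer cells of a type and less RNA per cell cannot be told apart.

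Tgfbi encodes a secreted matrix protein that binds collagen and integrins. It read 255, 209, 232 and 289 TPM in SOD1-WT and 183, 202, 201 and 221 TPM in SOD1-K123R. The highest SOD1-K123R library lay above the lowest SOD1-WT library, so the ranges overlapped. The mean was 246 ± 34.1 against 202 ± 15.5 TPM, a log2 fold change of -0.28 (SE 0.10), which turned to 0.20 (SE 0.15) after median-of-ratios scaling. That scaling moved the median log2 fold change over all 2890 genes by 0.35, from -0.49 to -0.14. Against those medians Tgfbi lay above the typical gene, but after quantile normalization it lay below (-0.45 against a median of -0.26), as it did among all 4226 rows (median -0.14) and among genes with a mean of 5 TPM or more (median 0.27).

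Bmp2 encodes a growth factor that drives bone and cartilage formation. Its TPM were 143, 162, 152 and 134 in SOD1-WT and 15.2, 11.4, 10.6 and 9.94 in SOD1-K123R. The lowest SOD1-WT library was several times above the highest SOD1-K123R library, which was replicate 1. The mean was 148 ± 12.2 against 11.8 ± 2.37 TPM (log2 fold change -3.56, SE 0.12, and -3.09 after median-of-ratios scaling). In relative terms the SOD1-K123R libraries were the more variable, with a standard deviation of 20.1% of the mean against 8.25% in SOD1-WT.

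Ism1 encodes isthmin 1, a secreted protein known as an inhibitor of angiogenesis. It read 18.9, 22.2, 22.1 and 38.4 TPM in SOD1-WT and 0.71, 0.58, 0.32 and 0.52 TPM in SOD1-K123R. SOD1-WT replicate 4 was the highest, and all SOD1-K123R libraries were below 1 TPM. The mean was 25.4 ± 8.82 against 0.533 ± 0.162 TPM (log2 fold change -4.06, SE 0.19). Ism1 passed the filter on mean TPM through its SOD1-WT level alone. Without SOD1-WT replicate 4 the log2 fold change was -3.85, and with a smaller pseudocount of 0.1 in place of 1 it was -5.32, since the SOD1-K123R values lie below the pseudocount of 1.

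The order of the levels differed between the groups. In SOD1-WT Tgfbi and Tgfb1 had overlapping ranges, and Bmp2, Ism1 and Lrrc32 followed with no overlap between neighbours. In SOD1-K123R the order was Tgfb1, Tgfbi, Lrrc32, Bmp2 and Ism1, and no neighbours overlapped. With the group means removed, the 5 genes did not move as 1 block over the 8 libraries: the Pearson correlation of log2 values ran from -0.77 for Tgfbi with Bmp2 to 0.47 for Tgfbi with Ism1 over the 10 pairs, as a description of libraries that share their preparation.

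Ratios within a library do not change when each library is scaled by 1 factor, although quantile normalization can change them. For every 1 TPM of Tgfb1, SOD1-WT libraries held 0.0280 to 0.0329 TPM of Lrrc32 and SOD1-K123R libraries held 0.295 to 0.423. The mean ratio of the dock to its ligand was thus 0.0311 ± 0.00216 against 0.375 ± 0.0571, a change of 12.1 times. Ltbp1, which encodes a latent TGF-beta binding protein of the matrix, went the other way, at 1.74 ± 0.247 against 0.458 ± 0.0348 TPM for each TPM of Tgfb1. Its relative Ltbp4 rose in TPM, from 10.3 ± 1.33 to 20.2 ± 1.20, and was not set against Tgfb1. The ratio of Bmp2 to Tgfb1 was 0.632 ± 0.105 against 0.0318 ± 0.00688, and that of Tgfbi to Tgfb1 was 1.05 ± 0.132 against 0.543 ± 0.0584. Bmp2 was also lower relative to Grem1, which encodes its antagonist gremlin 1, at 0.0729 ± 0.0105 against 0.0338 ± 0.00568. None of these 5 ratios overlapped between the groups. Each holds a gene picked on this contrast, and 91.4% of the 2890 genes did not overlap on their own, so nothing is read from that count.

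**Figure D2:**
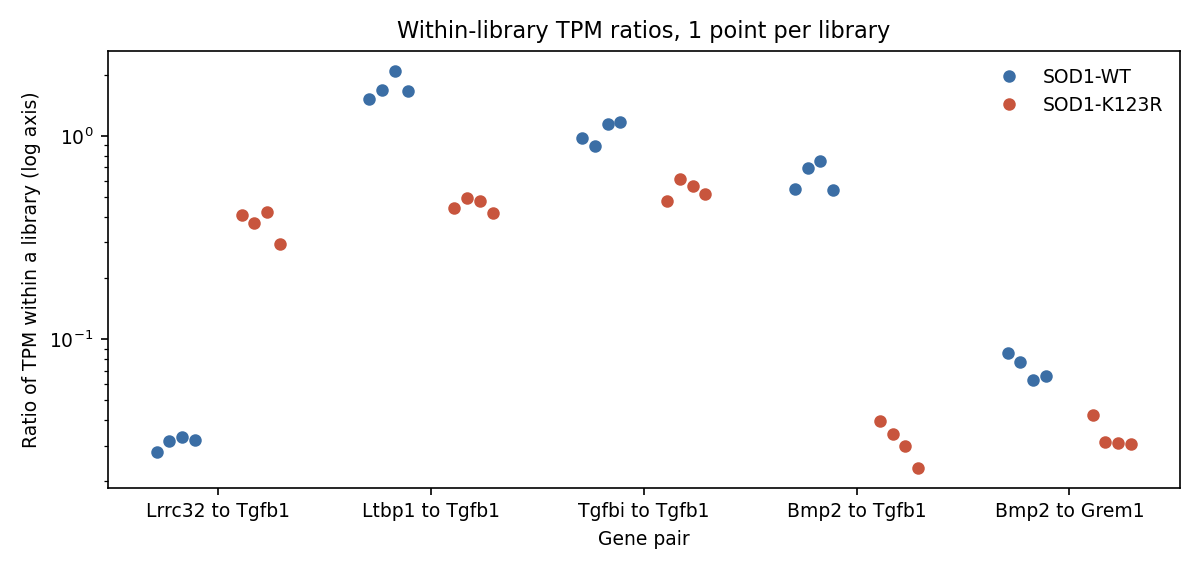
Ratio of the TPM of 2 genes within each library (vertical axis, log scale) for 5 gene pairs, with 1 point per library and colours for SOD1-WT and SOD1-K123R. Lrrc32 to Tgfb1 is higher in all SOD1-K123R libraries (0.295 to 0.423) than in all SOD1-WT libraries (0.0280 to 0.0329), and the other 4 ratios are lower.

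Sequence upstream of the start site was available from the RefSeq table of the GRCr8 assembly for 3 of the 5 genes, Tgfb1, Tgfbi and Ism1. The 250 bases before the start are shown for Tgfb1, which was higher in SOD1-K123R, and for Ism1, which was lower, because they contrast in composition; they are at chr1:90324062-90324311 (plus strand) and chr3:147476733-147476982 (plus strand). Capitals mark any match to 3 motifs searched on both strands, which do not overlap one another here: the SMAD-binding element CAGAC, the GC-rich SMAD site GGCGCC and the AP-1 site TGANTCA.
Tgfb1: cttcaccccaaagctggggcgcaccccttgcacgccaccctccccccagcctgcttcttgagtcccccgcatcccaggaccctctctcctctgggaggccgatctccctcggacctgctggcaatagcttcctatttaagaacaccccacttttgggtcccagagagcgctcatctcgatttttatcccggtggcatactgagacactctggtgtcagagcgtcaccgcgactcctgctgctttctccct
Ism1: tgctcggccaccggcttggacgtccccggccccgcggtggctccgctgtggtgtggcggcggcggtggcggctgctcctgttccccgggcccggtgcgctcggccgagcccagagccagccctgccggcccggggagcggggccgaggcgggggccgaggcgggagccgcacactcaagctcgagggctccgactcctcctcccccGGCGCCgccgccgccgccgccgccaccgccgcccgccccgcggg
The Ism1 window was 82.8% G or C, more than 99.5% of the 33469 windows of the table, and held 39 CpG pairs, whereas the Tgfb1 window was 60.0% G or C with 11 CpG pairs (median of all windows 51.2% and 5). Ism1 and Tgfbi each held 1 match to GGCGCC, starting 44 and 112 bases before the start site, a motif found in 8.69% of all windows. No match to CAGAC (42.9% of windows) or TGANTCA (6.34%) lay in the 3 windows. A match is a description of the letters and not a binding site.

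Other genes of the pathway were taken by role from lists of 158 symbols, of which 44 were in the table and 38 had a mean of 1 TPM or more. The limma fit, with a threshold of 0.05 on the Benjamini-Hochberg adjusted p, found that 17 of the 38 rose, 20 fell and 1 did not pass. The share that passed, 97.4%, was near the 95.7% of all 2890 genes tested (44.6% higher and 51.1% lower). The number of calls thus says nothing particular to the pathway. The median log2 fold change of the 38 was -0.40 against -0.49 over all genes. The latter depended on the filter: it was 0.27 once the cut was raised to 5 TPM and -0.14 without a cut. Under the higher cut 14 of 30 role-list genes rose and 16 fell, beside 948 and 897 of 1896 over all rows. Whether the role-list median stays near that of all genes under other cuts was not tested. Lists taken from the table's own annotation had more tested genes higher than lower. Of 11 tested genes that its KEGG column places in TGF-beta signalling 6 rose, 4 fell and 1 did not pass (median log2 fold change 0.81), and of 31 whose GO column names BMP or TGF-beta receptor signalling 16 rose, 14 fell and 1 did not pass (median 0.32). With no filter on mean TPM, 6 of the 15 KEGG genes rose and 7 fell, and 22 of the 46 GO genes rose and 18 fell. With the filter of 1 TPM, the median of the role lists had the opposite sign to those of both annotation lists, and the difference was not tested. Genes named below are described by their role and size of change. Counts by role are small and stand beside 44.6% higher and 51.1% lower over all genes tested, so nothing is read from them.

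Among the other ligands only 3 of 31 were tested. Gdf15, a stress-induced cytokine distantly related to the family, rose (log2 fold change 3.32, SE 0.09). Gdf11, a ligand of the activin branch, fell from 17.2 ± 1.65 to 7.27 ± 0.709 TPM (limma adjusted p = 6.49e-07). Gdf5, a ligand of joint and disc development, was at 0.838 ± 0.280 and 1.33 ± 0.580 TPM and did not pass (log2 fold change 0.32, limma adjusted p = 0.0948), but passed after median-of-ratios scaling (0.55, limma adjusted p = 0.0148) and quantile normalization (0.50, limma adjusted p = 0.0316), and without SOD1-K123R replicate 4 (0.42, limma adjusted p = 0.0407). Gdf5 itself reached the filter of 1 TPM through its SOD1-K123R level alone. The ligand genes Bmp5, Mstn and Inhbe lay under the filter, with means of at most 0.825 TPM in either group.

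Of 5 tested receptors and coreceptors 4 fell and 1 rose (51.1% and 44.6% of all 2890 genes tested). Bmpr1b, a type I receptor for BMP and GDF ligands, fell from 26.1 ± 3.30 to 7.75 ± 0.542 TPM, and Acvrl1, the type I receptor ALK1, fell from 7.53 ± 0.532 to 1.96 ± 0.149 TPM. Acvr2b, a type II receptor for activins, rose from 0.478 ± 0.108 to 2.37 ± 0.846 TPM, and passed the filter on mean TPM through its SOD1-K123R level alone. Cd109, a coreceptor that restrains TGF-beta signalling, fell by 0.56 on the log2 scale (limma adjusted p = 0.00703), but did not pass with median-of-ratios scaling (-0.12, limma adjusted p = 0.407). Bambi, a decoy receptor without a kinase, had a log2 fold change of -0.24 (limma adjusted p = 0.0384), which turned to 0.23 (limma adjusted p = 0.162) after median-of-ratios scaling. Bambi also missed the threshold in 5 of 8 fits made without 1 of the libraries (limma adjusted p of 0.0561 to 0.131 in those 5, without SOD1-WT replicate 1, 2 or 4 or SOD1-K123R replicate 1 or 4).

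Of 5 tested SMADs and intracellular regulators 4 rose (44.6% of all 2890 genes tested). Smad2, which carries the signal of TGF-beta and activin receptors, rose from 19.9 ± 2.93 to 59.9 ± 3.40 TPM. Smad6, an inhibitory SMAD of the BMP branch, rose from 9.87 ± 1.90 to 26.1 ± 1.06 TPM. Smurf1, a ubiquitin ligase that marks BMP SMADs for degradation, rose from 25.6 ± 3.03 to 45.6 ± 4.76 TPM, and Tgif1, a corepressor of SMAD-driven transcription, rose by 1.62 on the log2 scale (SE 0.08). Pmepa1, a TGF-beta-induced inhibitor of SMAD activation, fell from 219.9 ± 15.9 to 56.0 ± 5.16 TPM. Smad9, a BMP-branch SMAD, lay under the filter at 0.933 ± 0.114 and 0.293 ± 0.0585 TPM.

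Of 4 tested genes in the list of extracellular antagonists 3 fell (51.1% of all 2890 genes tested). The 3 include Ism2, whose role as an antagonist was not examined here. Grem1, the most abundant of them, fell from 2055 ± 300.4 to 347 ± 18.0 TPM and was still far above Bmp2 in every library. Bmper, a modulator that binds BMPs, fell from 3.76 ± 0.873 to 0.700 ± 0.206 TPM. Ism2, the paralogue of Ism1, fell from 1.77 ± 0.515 to 0.678 ± 0.234 TPM, a smaller change than that of Ism1 from a lower level. Nog, which encodes noggin, rose from 0.680 ± 0.165 to 2.99 ± 0.626 TPM. Nog passed the filter on mean TPM through its SOD1-K123R level alone. Bmper and Ism2 passed it through their SOD1-WT levels alone, so the calls of these genes are given as a description.

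Of 7 tested genes of docking, storage and activation of latent TGF-beta 3 rose and 4 fell, near the 44.6% and 51.1% of all 2890 genes. Ltbp1, the binding protein that anchors latent TGF-beta in the matrix, fell from 406 ± 13.2 to 170.3 ± 5.88 TPM, whereas Ltbp4, its relative, rose from 10.3 ± 1.33 to 20.2 ± 1.20 TPM. Thbs1, which encodes the TGF-beta activator thrombospondin 1, fell from 3967 ± 586 to 1345 ± 174 TPM, and Thbs2 and Emilin1 fell by 1.43 and 1.05 on the log2 scale. Mmp9, a gelatinase able to free TGF-beta from its latent complex, rose from 1249 ± 166 to 3750 ± 223 TPM, and Dcn, a proteoglycan that binds TGF-beta, rose by a log2 fold change of 0.94. Set beside these, Lrrc32 stood at 0.0181 ± 0.00159 of the TPM of Ltbp1 in SOD1-WT and at 0.818 ± 0.104 in SOD1-K123R.

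**Figure D3:**
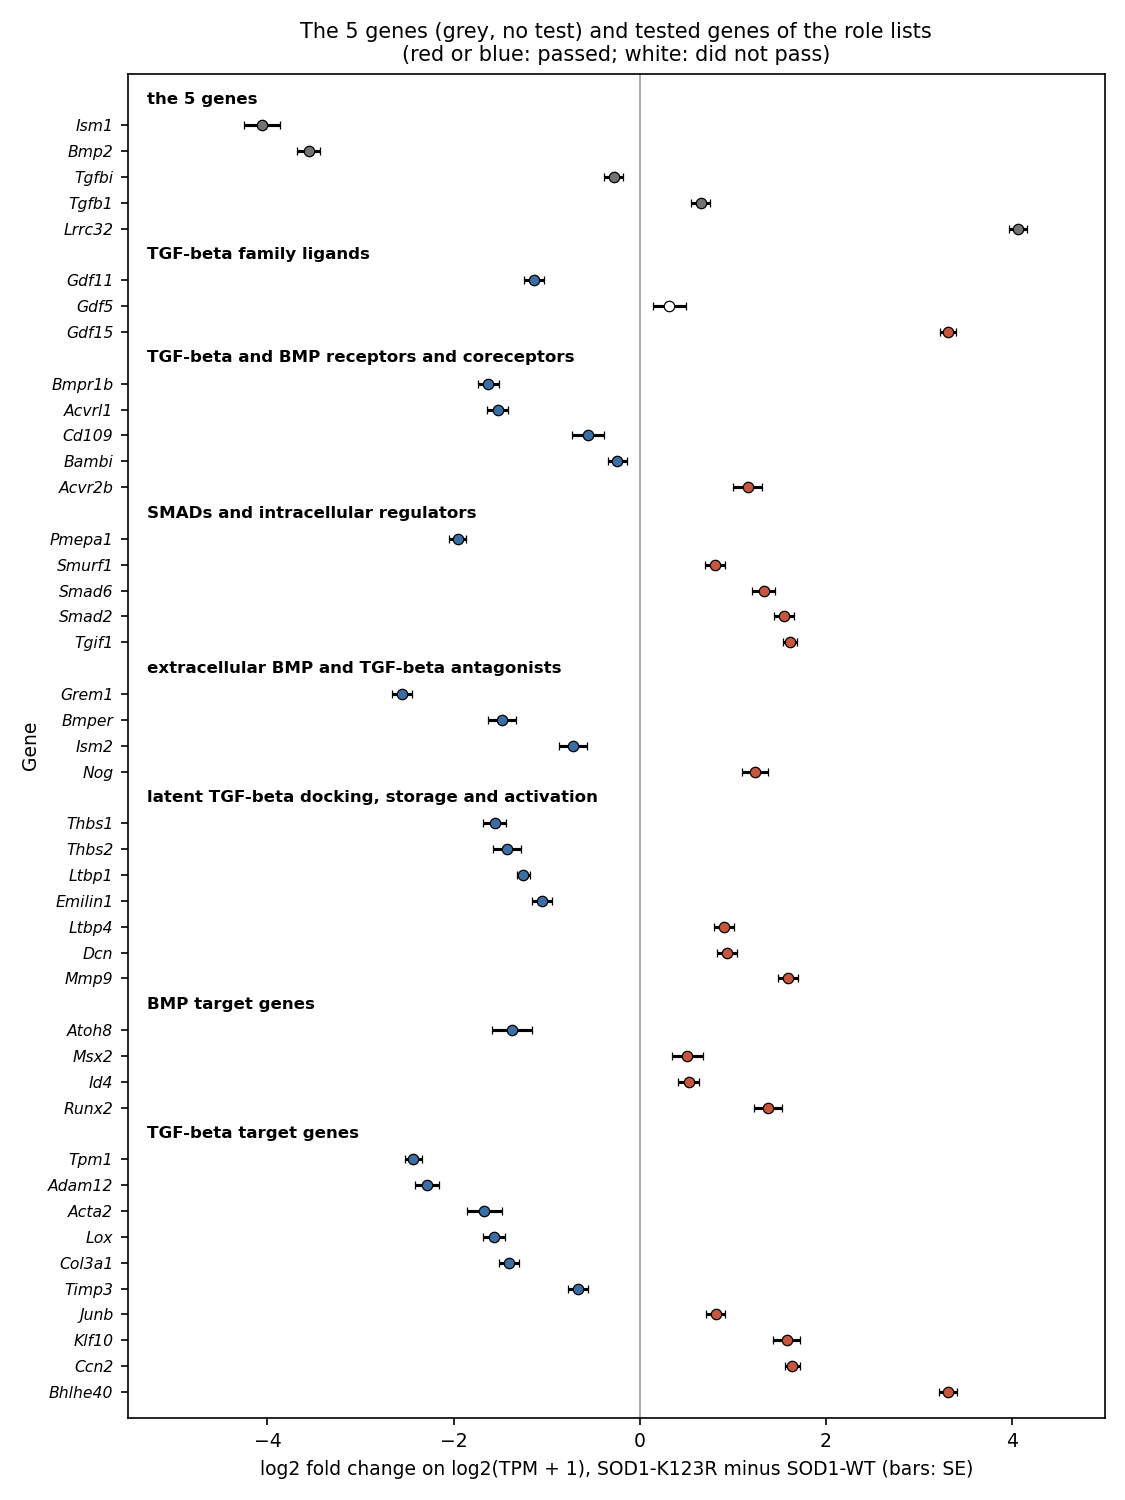
Log2 fold change on log2(TPM + 1), SOD1-K123R minus SOD1-WT (horizontal axis, bars are SE), for the 5 genes (grey, not tested) and the 38 tested genes of the role lists, each drawn once under the first list that holds it. Red and blue points passed in limma and the white point, Gdf5, did not; 17 genes lie higher and 20 lower among those that passed.

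Targets of the pathway also went both ways, beside 44.6% higher and 51.1% lower over all 2890 genes. The target lists share genes with the lists above. Of 8 tested BMP targets 5 rose and 3 fell. Runx2, a transcription factor of bone formation, rose from 4.52 ± 1.03 to 13.3 ± 2.23 TPM, while Id4 and Msx2 rose by only 0.53 and 0.51 on the log2 scale and Atoh8 fell by 1.37. Smad6, Nog, Grem1 and Bambi, given above, are the other members. Of 7 listed osteoblast markers 3 were in the table, Runx2, Ibsp and Alpl. Ibsp stood at 9.22 ± 1.82 TPM in SOD1-WT and 1.54 ± 0.509 TPM in SOD1-K123R, and Alpl at 0.0825 ± 0.0768 and 0.2025 ± 0.143 TPM. The 3 summed to 11.8 to 16.0 TPM in SOD1-WT libraries and 12.5 to 17.2 TPM in SOD1-K123R libraries. Of 12 tested TGF-beta targets 5 rose and 7 fell. Those that fell include the contractile and matrix genes Tpm1 (log2 fold change -2.43, SE 0.09), Acta2 (-1.67), Col3a1 (-1.41) and Lox (-1.56), the disintegrin gene Adam12 (-2.29) and the protease inhibitor gene Timp3 (-0.67). Timp3 missed the threshold with median-of-ratios scaling (-0.20, limma adjusted p = 0.132). Those that rose are the transcription factor genes Bhlhe40 (3.32), Klf10 (1.58), Junb (0.82) and Tgif1, and the matricellular gene Ccn2 (1.64). Bhlhe40 responds to hypoxia and the circadian clock as well. The summed level of the 4 smooth muscle and pericyte markers in the table was 982 to 2129 TPM in SOD1-WT and 420.5 to 545 TPM in SOD1-K123R, but nearly all of it was Acta2 itself. Of the other 3, Cnn1 stood at 80.2 ± 24.5 and 38.5 ± 7.10 TPM, Myh11 at 9.38 ± 1.08 and 1.62 ± 0.245 TPM and Mcam, a pericyte marker, at 8.20 ± 1.79 and 25.9 ± 3.47 TPM. The 3 annulus fibrosus and tendon markers in the table, Tnc, Scx and Thbs4, summed to 346 to 451 TPM and 187 to 215 TPM. The part of these cell types in the fall of contractile and matrix genes was not tested.

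Outside the role lists, the annotated genes with the smallest p that fell were Rasl11b, a Ras-like GTPase (345 ± 32.4 to 57.9 ± 12.9 TPM), Tfdp1, the partner of E2F factors (log2 fold change -1.30), Sulf1, a sulfatase that edits heparan sulfate (-1.69), Gipc1, an adaptor that binds receptor tails (-2.02), Pml (-1.01) and Sox11 (-1.18). Those that rose were the chaperone gene Hspa5 (2.13), the corepressor gene Sin3a (1.51), the matricellular gene Ccn1 (1.65), the transcription factor gene Sp1 (1.95), Tob1, a restrainer of proliferation and of BMP SMADs (50.0 ± 3.13 to 108 ± 8.06 TPM), and Wfikkn1, which encodes a binder of myostatin and GDF11 (2.65 ± 0.312 to 8.78 ± 0.675 TPM). Every limma adjusted p among these 12 was at most 3.27e-06. Sox11 passed the filter on mean TPM through its SOD1-WT level alone (2.61 ± 0.568 against 0.585 ± 0.1185 TPM).

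The genes most like each of the 5 were found by Pearson correlation of log2(TPM + 1) over the 8 libraries. This likeness was set mostly by the difference between the groups, except for Tgfbi, whose groups overlap. The genes were picked over these same libraries, so their correlations with the group means removed are a description and no separate support. For Lrrc32 they were Eeig1 (r = 0.9995), Rbm38 (0.9993) and Susd6 (0.9992), and with the group means removed their correlations were 0.85, 0.93 and 0.95. Eeig1 went from 5.73 ± 0.531 to 87.4 ± 7.34 TPM. For Bmp2 they were Dnaaf10 (0.9985), Chsy3 (0.998) and Krtap11-1 (0.9977), with 0.84, 0.75 and 0.90 when the means were removed. For Ism1 they were 6430548M08Rikl (0.9985), the kinase gene Mtor (0.9984, 16.8 ± 1.54 to 4.47 ± 0.267 TPM) and the metalloproteinase gene Adam19 (0.998). Tgfb1 was nearest to Tsen54 (0.9954), Fgfrl1 (0.9947) and Bag3 (0.9898), with 0.97, 0.96 and 0.93 when the means were removed. Tgfbi had no match as close: Thbs4 (0.9158), Adm2 (0.9114) and Bmal2 (0.8979) were nearest, with 0.83, 0.82 and 0.78 when the means were removed.

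Under the alternatives of processing, 4 of the 5 genes kept their direction and Tgfbi did not. Lrrc32 ranged from 4.01 to 4.51 on the log2 scale, Bmp2 from -3.68 to -3.09, Ism1 from -5.32 to -3.72 and Tgfb1 from 0.35 to 1.14.

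**Figure D4:**
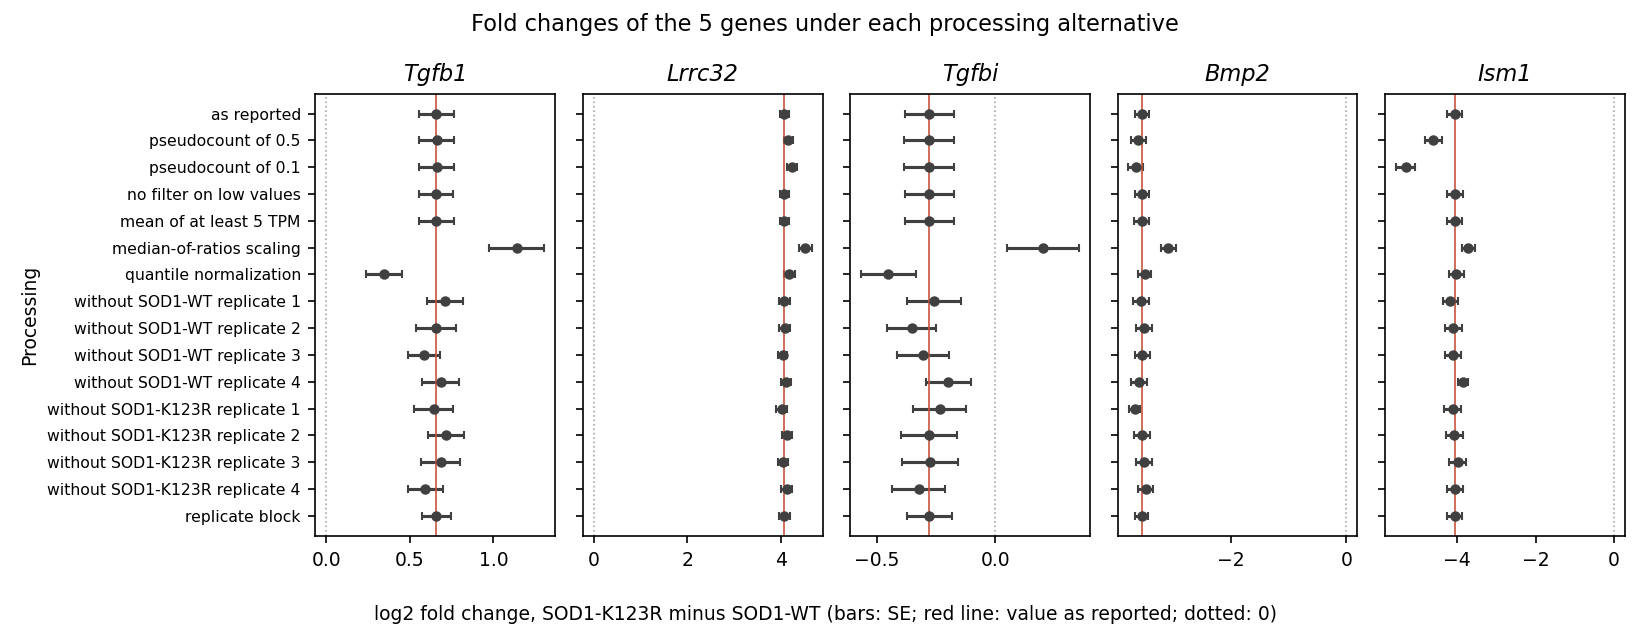
Log2 fold change of each gene (horizontal axes, SOD1-K123R minus SOD1-WT, bars are SE) under each processing alternative (vertical axis), with a red line at the value as reported and a dotted line at 0. Only Tgfbi crosses 0, at 0.20 after median-of-ratios scaling, and Ism1 moves most with the pseudocount.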

How the data were processed

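The authors deposited 1 gene-level table of TPM for 8 libraries of rat nucleus pulposus cells; the table's name gives RSEM as their source. Per the labels, RNA was isolated with TRIzol and read in pairs on an Illumina NovaSeq, and the submitters' processing notes name DESeq2 without a role. The sources used here name no aligner, genome build or annotation release and do not say how the 4226 rows were selected, so counts refer to these rows; TPM keep no read counts, so depth is unknown. Groups follow the titles. Rows with a mean of at least 1 TPM (2890) were transformed to log2(TPM + 1) and fitted with limma 3.58.1 (lmFit, eBayes with trend) in R 4.3.3, two-sided, with Benjamini-Hochberg adjustment over all 2890; the step was tested on simulated data. The members and lists were chosen with earlier results of these data known. Named are the 5 genes, per role list up to 5 genes with the smallest p and those that did not pass (others by fold or count), up to 6 annotated genes per direction outside those lists, and the 3 rows most like each of the 5. Alternatives were other pseudocounts, filters and scalings, leaving out each library, and a replicate block. Median-of-ratios size factors came from rows above 0 in all libraries. Promoter windows are from RefSeq (GRCr8).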

Additional observations from a re-analysis of the deposited data

Results flagged for a closer look

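In each group of 4 libraries, the gap between an end library and its neighbour was set against the group's range, for 78 genes named or listed above and hence 156 groups. The share was above Dixon's critical value for 4 libraries 9 times, and chance gives about 1 in 20 groups. None of these concerned the 5 genes; Ism1 came closest, with SOD1-WT replicate 4 at a gap of 0.828 of the range. In SOD1-WT replicate 4, Thbs2 read 1099.63 TPM (646 to 702 in the rest of the group), Tob1 54.68 TPM (48.1 to 48.7) and Acvr2b 0.64 TPM (0.42 to 0.43). In SOD1-K123R replicate 4, Klf10 read 13.01 TPM (20.6 to 21.1 in the rest), Gdf11 8.33 TPM (6.84 to 6.96) and Bmal2 1.40 TPM (1.09 to 1.13). In SOD1-K123R replicate 1, Acvr2b read 3.63 TPM (1.81 to 2.05 in the rest) and Ing2 16.32 TPM (13.7 to 14.0). Mtor read 4.07 TPM in SOD1-K123R replicate 3 (4.56 to 4.63 in the rest).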

How the results depend on the processing

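Median-of-ratios scaling turned the log2 fold change of Tgfbi from -0.28 to 0.20 and that of Bambi to 0.23, and moved Bmp2 to -3.09, Tgfb1 to 1.14 and Lrrc32 to 4.51; the median of all genes moved by 0.35 with it. Quantile normalization moved Tgfb1 to 0.35. Median-of-ratios scaling takes the typical gene as unchanged between libraries, whereas 95.7% of the 2890 genes passed. Which scaling is the better one for these libraries was not settled. Pseudocounts of 0.5 and 0.1 moved Ism1 to -4.61 and -5.32. Leaving out 1 library gave ranges of 0.59 to 0.71 for Tgfb1, 4.01 to 4.12 for Lrrc32, -0.35 to -0.20 for Tgfbi, -3.68 to -3.49 for Bmp2 and -4.18 to -3.85 for Ism1. With a mean of at least 5 TPM, 948 of 1896 genes rose and 897 fell, in place of 1289 and 1476 of 2890. The median log2 fold change over all genes tested was then 0.27 in place of -0.49. With no filter, 7 of 15 KEGG genes fell in place of 4 of 11. The cause of these changes was not tested. Deviations from the group means of same-numbered libraries correlated at -0.35, 0.016, -0.204 and 0.054. Those of differently numbered libraries ran from -0.40 to 0.444. With 4 libraries in each group these values cannot settle whether the replicate numbers pair the libraries. A replicate block let 2743 genes pass in place of 2765. Of the role lists 36 of 38 genes passed with the block in place of 37, Bambi being lost (limma adjusted p = 0.0708). For single genes other than the 5, 1062 of 1079 values under an alternative kept their direction and side of the threshold, 13 lost the call, 3 gained it and 1 reversed. Depth cannot be recovered from TPM, so how far it limits the genes near 1 TPM (Ism1 in SOD1-K123R, Nog, Acvr2b, Gdf5) is unknown.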
